A study of Mus musculus with 2 samples.

Results

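The 10 genes described here were Pcdh1, Pcdh7, Pcdh8, Pcdh9, Pcdh10, Pcdh11x, Pcdh17, Pcdh18, Pcdh19 and Pcdh20, the non-clustered delta protocadherins, each a single gene lying outside the protocadherin clusters of chromosome 18. They were chosen by name from the 32285 genes of the count matrix, and all 10 were in it. The tissue was E18.5 brain of the C57BL/6 background carrying the homozygous Ctcf mutation, a CTCF change named R567W that was made with CRISPR/Cas9. SPARC-seq gave 1 RNA library and 1 chromatin accessibility library from this tissue, which shared 1993 barcodes. No wild-type library and no replicate of this assay was analysed here, so every value describes the mutant tissue alone and no difference can be assigned to the mutation. The number of embryos behind each library is not given in the sources used here.

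Delta protocadherins are cell-surface adhesion proteins of the cadherin superfamily, which bind mostly to their own kind on neighbouring cells and guide axon growth, cell sorting and synapse formation in the developing brain. The delta1 genes, Pcdh1, Pcdh7, Pcdh9 and Pcdh11x, encode proteins with a longer extracellular part, and the delta2 genes, Pcdh8, Pcdh10, Pcdh17, Pcdh18 and Pcdh19, encode proteins with a shorter one, several of which bind an actin-regulating complex through their tails. Pcdh20 is placed differently by different classifications and is kept apart here. Unlike the clustered protocadherins, whose choice among alternative promoters depends on CTCF, each of these genes stands alone with its own promoter.

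A barcode was read as 2 segments of 8 bases, which together form a grid of spots. A spot can hold several cells, and the grid is an inference from the barcodes. After filtering, 1992 spots with 8711132 UMIs (unique molecular identifiers, each standing for 1 captured RNA molecule) were kept, with a median of 4157 UMIs per spot and a range of 907 to 12442. The tissue was not neural only: the 8 neuron markers summed to 5311 CPM (UMIs per 1000000 UMIs of the same spots) in the spots outside the named regions described below, where 10 muscle markers still summed to 4238 CPM and globin-led erythroid markers to 4934 CPM. Fewer cells of a type and less RNA per cell cannot be told apart in such spots. All intervals below are at 95% and cover counting error only.

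Promoter sequences are shown for 4 members that span the range of UMIs and accessibility described below. Pcdh9 and Pcdh17 had many UMIs and promoter fragments, Pcdh8 an accessible promoter and few UMIs, and Pcdh20 few of either. Each sequence is the 250 bases before the annotated start, 5′ to 3′ on the strand of the gene, from RefSeq on GRCm38.p6, with CG dinucleotides in capitals.
Pcdh9, chr14:93890670-93890919, minus strand: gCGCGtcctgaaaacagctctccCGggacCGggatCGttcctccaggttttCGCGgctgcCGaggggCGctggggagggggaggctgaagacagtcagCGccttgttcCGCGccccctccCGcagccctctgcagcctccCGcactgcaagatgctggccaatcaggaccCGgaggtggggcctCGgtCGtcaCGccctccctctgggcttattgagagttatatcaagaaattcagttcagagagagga
Pcdh17, chr14:84443313-84443562, plus strand: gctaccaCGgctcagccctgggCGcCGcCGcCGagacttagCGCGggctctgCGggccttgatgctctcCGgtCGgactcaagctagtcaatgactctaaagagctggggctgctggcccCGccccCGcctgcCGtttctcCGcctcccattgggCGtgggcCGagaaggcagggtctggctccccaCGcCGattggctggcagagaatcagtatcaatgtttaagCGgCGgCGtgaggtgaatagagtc
Pcdh8, chr14:79771313-79771562, minus strand: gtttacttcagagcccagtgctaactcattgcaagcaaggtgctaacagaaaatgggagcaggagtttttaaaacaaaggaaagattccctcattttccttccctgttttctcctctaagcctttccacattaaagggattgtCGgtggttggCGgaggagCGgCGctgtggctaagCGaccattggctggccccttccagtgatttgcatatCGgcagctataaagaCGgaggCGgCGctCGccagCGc
Pcdh20, chr14:88471397-88471646, minus strand: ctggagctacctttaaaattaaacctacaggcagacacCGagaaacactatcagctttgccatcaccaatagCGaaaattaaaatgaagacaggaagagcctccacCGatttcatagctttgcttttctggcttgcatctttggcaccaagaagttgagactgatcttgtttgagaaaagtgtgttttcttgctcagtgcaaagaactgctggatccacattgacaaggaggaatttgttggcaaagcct
These sequences differed in CG content. The Pcdh17 promoter held 21 CG dinucleotides and the Pcdh9 promoter 18, against a median of 6 over 32841 promoter entries of the same length. Pcdh8 held 11, and Pcdh20 held 3, with a GC content of 42.4%. Of the other members with an entry, Pcdh18 held 23, Pcdh10 held 22, Pcdh19 held 16 and Pcdh7 held 7. In all, 8 of 10 members had an entry, and Pcdh1 and Pcdh11x had none. The letters CCAAT, searched on both strands, occurred in 7 of these 8 promoters and in 33.9% of all entries. The GC box GGGCGG occurred in 4 of 8, against 32.7% of all, and TATAAA in 1 of 8, that of Pcdh8, against 12.4% of all. An exact string for the CTCF core consensus, with some positions open to any base, was searched on both strands. It was present within 1 kb of the transcription start site (TSS) of 1 of 10 members, Pcdh11x, at position -69 from its start. The same string was present near 13.1% of 21938 protein-coding starts. A site that differs from the string at a fixed position is missed, so the other members cannot be said to lack a CTCF motif. A match is a description of the letters and not of binding.

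On mm10 (GRCm38), Pcdh9 lies at chr14:93013410-93890679 and Pcdh17 at chr14:84443563-84539002, with Pcdh8 and Pcdh20 on the same chromosome. Pcdh10 and Pcdh18 are on chromosome 3, Pcdh7 on 5, Pcdh1 on 18, and Pcdh11x and Pcdh19 on X. The members summed to 24637 UMIs, or 2828 CPM (2793 to 2864). In the same spots, 57 clustered protocadherin genes together gave 1081 UMIs, or 124 CPM (117 to 132). Both sums are counts and not levels of expression that can be set against each other, since the genes differ in length. How reads that fit several clustered genes were counted is not given in the sources used here. The paper also reports that most clustered genes were lower in brain of this mutant. At least 1 member was seen in 99.8% of spots, with a median of 4 members per spot. Pcdh9 alone gave 53.4% of the members' UMIs. The UMI counts of the members spanned 3 orders of magnitude, as the plot of levels shows.

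Among the delta1 genes, Pcdh9, which is expressed widely in developing forebrain neurons, had 13161 UMIs, equal to 1511 CPM (1485 to 1537). It ranked 26 among all genes of the matrix by UMIs. Pcdh7, a protocadherin whose cytoplasmic tail binds the SET protein and protein phosphatase 1, had 4862 UMIs, equal to 558 CPM (543 to 574), and ranked 179. The other delta1 genes gave fewer UMIs. The X-linked gene Pcdh11x had 926 UMIs (106 CPM, 99.6 to 113). Pcdh1, which is also known from airway epithelium, had 336 UMIs (38.6 CPM, 34.6 to 42.9).

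Among the delta2 genes, Pcdh17, which acts in axon extension and at synapses of cortico-basal ganglia circuits, had 3432 UMIs, equal to 394 CPM (381 to 407). Pcdh10, which is required for the growth of striatal axons, had 967 UMIs (111 CPM, 104 to 118). Pcdh19, the X-linked epilepsy gene, had 718 UMIs (82.4 CPM, 76.5 to 88.7). The remaining delta2 genes gave few UMIs. Pcdh18, whose protein binds the reelin adaptor Dab1, had 140 UMIs (16.1 CPM, 13.5 to 19.0), and Pcdh8, the activity-regulated protocadherin also called arcadlin, had 82 UMIs (9.41 CPM, 7.49 to 11.7). Pcdh20 had 13 UMIs in 11 spots (1.49 CPM, 0.795 to 2.55). Pcdh8 and Pcdh20 fell below the minimum of 100 UMIs used for the RNA calls over strips and regions, so 8 of 10 members were tested there.

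**Figure D1:**
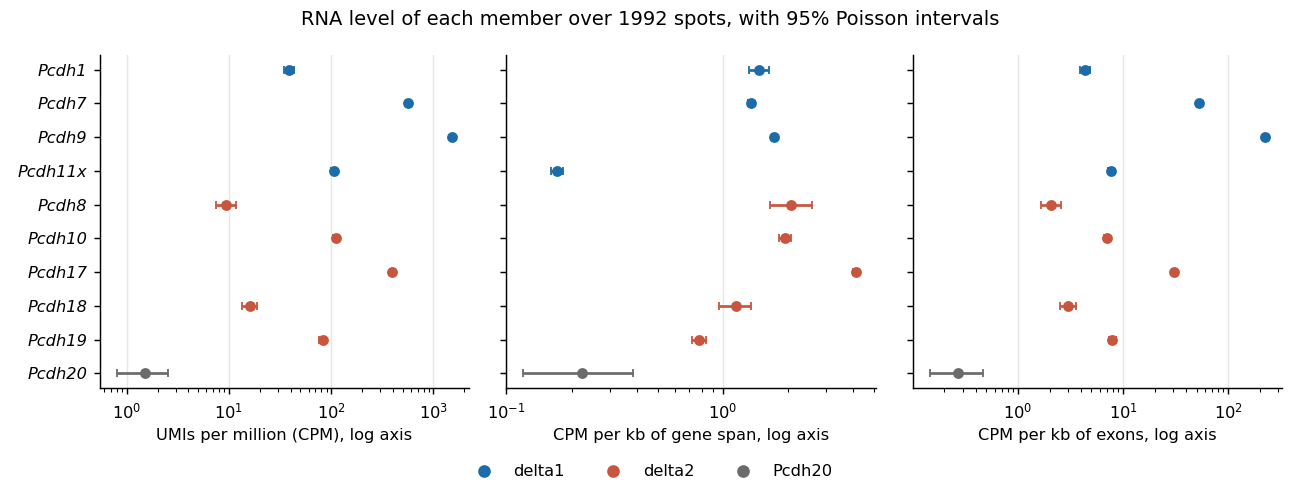
RNA level of each member over 1992 spots on log axes, as CPM, CPM per kb of gene span and CPM per kb of exons. Points are levels and bars 95% Poisson intervals (delta1 in blue, delta2 in red, Pcdh20 in grey). Pcdh9 was highest in CPM at 1511 CPM and per kb of exons at 223, whereas Pcdh17 was highest per kb of gene span at 4.13.

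The order of levels was taken per length, and it depended on which length was used. Whether UMIs scaled with the gene span or with the exons was not tested. Per kb of gene span, Pcdh17 was highest at 4.13 CPM per kb (3.99 to 4.27). Pcdh8 followed at 2.07 (1.65 to 2.57), Pcdh10 at 1.94 (1.82 to 2.07) and Pcdh9 at 1.72 (1.69 to 1.75). The interval of Pcdh8 overlapped those of both Pcdh10 and Pcdh9, whereas those of Pcdh10 and Pcdh9 did not overlap. Pcdh1 at 1.48 (1.32 to 1.64) overlapped Pcdh7 at 1.34 (1.31 to 1.38), and Pcdh7 overlapped Pcdh18 at 1.15 (0.964 to 1.35). Pcdh19 stood alone at 0.777. Pcdh20 at 0.224 (0.119 to 0.384) and Pcdh11x at 0.171 (0.160 to 0.183) were lowest and overlapped.

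Per kb of exons, Pcdh9 came first at 223 CPM per kb (219 to 227), ahead of Pcdh7 at 52.6 and Pcdh17 at 30.3. Pcdh19, Pcdh11x and Pcdh10 followed at 7.88, 7.62 and 6.99, with overlapping intervals between neighbours. Pcdh1 was at 4.38, Pcdh18 at 3.0 and Pcdh8 at 2.07. Pcdh20 was last at 0.272. The genes with a large gap between both scales were those with long introns: Pcdh9 spans 877 kb with 6.78 kb of exons, Pcdh11x 620 kb with 13.9 kb and Pcdh7 415 kb with 10.6 kb, whereas Pcdh8 spans 4.54 kb. The deposited matrix does not say which UMIs came from introns.

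Other genes overlapped the members in the annotation. Those with counts of their own in the matrix were rare beside the members, the highest being 4932441J04Rik on the opposite strand of Pcdh7 with 59 UMIs and 1700027H10Rik on the opposite strand of Pcdh10 with 21. The strand setting of the counting is not given in the sources used here, so reads of such pairs may have been split.

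Variation over the tissue was measured along both barcode segments. Spots that share a segment form a strip, and the index of dispersion compares the spread of a gene's UMIs over strips with the Poisson spread, which gives 1. Over the 48 strips of the second barcode segment, 6 of 8 members had an index above 1.5, and 33.0% of the 10692 genes with at least 100 UMIs did. The members' median was 2.10 and that of all genes 1.33. With Gm42418 and the mitochondrial genes left out of the total, Pcdh19 was at 1.49, and outside the named regions described below Pcdh10 was at 1.36 and Pcdh19 at 0.84, below 1.5. Over the 50 strips of the first segment, 1 of 8 members was above 1.5, against 5.58% of all genes. The index rises with a gene's UMIs, so the extra spread is also given as a coefficient of variation (CV) after removal of the Poisson part. The shares and percentiles over all genes were not matched for UMIs, and the extra CV is given without a value over all genes. Whether the members vary more than genes with similar UMIs was thus not tested.

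Of the 8 members tested, Pcdh17 had the highest index over the second segment and Pcdh10 the highest extra CV. The index of Pcdh17 was 6.03, higher than for 98.8% of genes, and its extra CV was 26.5%. Among the 44 strips with at least 20 spots its level ran from 209 CPM (152 to 280) through a median of 394 to 646 CPM (510 to 806). The highest strip was 3.09-fold above the lowest (2.11 to 4.58). These strips were picked as the extremes, and the interval does not cover that choice, here and for the members below. The interval lay above the overall level of the gene in 11 of 48 strips and below it in 11. Over the first segment Pcdh17 was also the member with the highest index, 1.68.

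Pcdh9 had an index of 5.12 over the second segment, higher than for 98.4% of genes, and an extra CV of 12.3%. Its level ran from 1129 CPM (1008 to 1259) through a median of 1561 to 1797 CPM (1597 to 2014) in strips with at least 20 spots, a 1.59-fold range (1.35 to 1.87). The interval lay above its overall level in 13 of 48 strips and below it in 9. Over the first segment its index was 0.93, so its spread did not exceed the Poisson spread there. The picked extremes of that segment still differed 1.32-fold (1.10 to 1.59). A UMI of Pcdh9 was seen in 98.9% of spots, a share too near its ceiling to show differences in level.

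Pcdh10 and Pcdh11x, with fewer UMIs, varied more in proportion than Pcdh9. Pcdh10 had an index of 2.68 and the highest extra CV of the 8 members tested, 28.8%, with strips from 35.2 CPM (16.9 to 64.7) through a median of 111 to 195 CPM (138 to 268). Pcdh11x had an index of 2.20 and an extra CV of 25.0%, with strips from 33.2 CPM (13.3 to 68.4) through a median of 103 to 222 CPM (138 to 340). The highest strip of each, a picked extreme, lay outside the interval of the lowest. Pcdh7 had an index of 2.0 and an extra CV of 9.96%, with strips from 391 to 777 CPM. Pcdh19 was just above the threshold at 1.52, with strips from 39.0 to 133 CPM.

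Pcdh1 and Pcdh18 did not exceed the Poisson spread over the second segment, with indices of 0.83 and 0.92. Over the first segment Pcdh1 was at 1.49, with an extra CV of 26.9%, and Pcdh18 at 1.11.

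**Figure D2:**
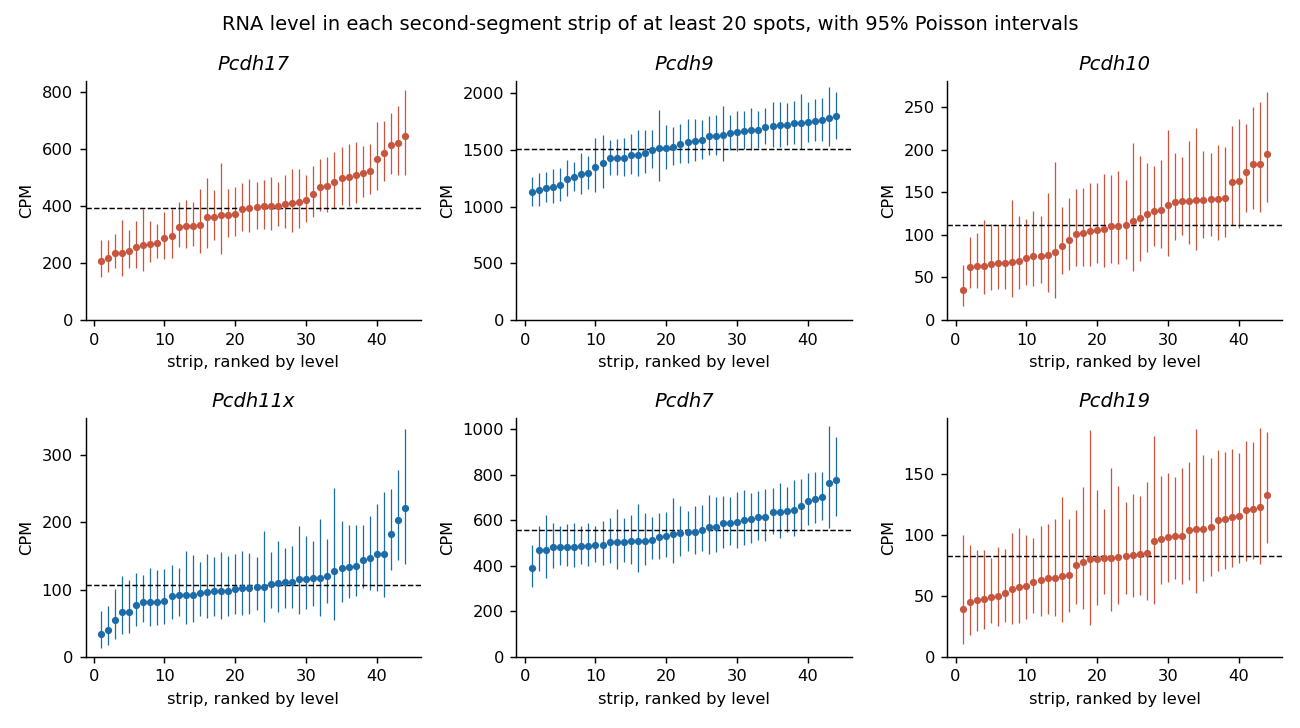
CPM of 6 members in each of the 44 strips of the second barcode segment with at least 20 spots, ranked by level within each gene. Points are strips, bars 95% Poisson intervals and the dashed line the level over all spots. Pcdh17 ran from 209 to 646 CPM, and Pcdh9 from 1129 to 1797 CPM.

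**Figure D3:**
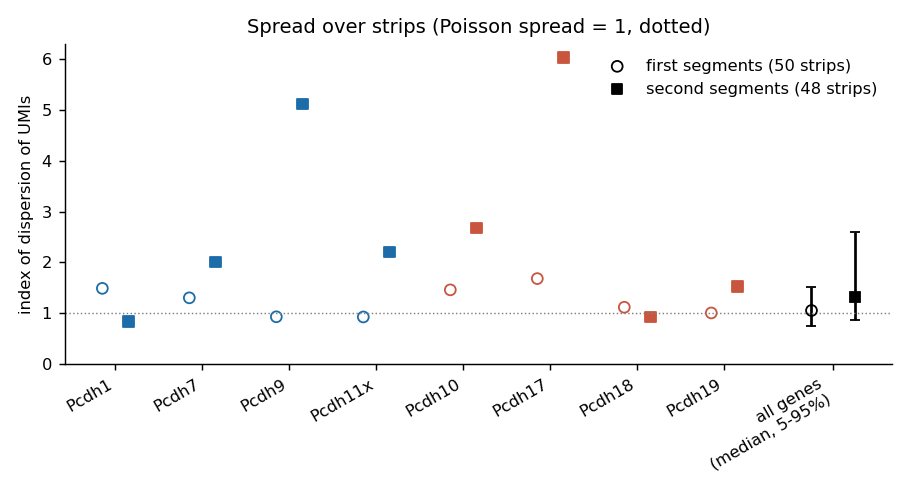
Index of dispersion of UMIs over strips of the first barcode segment (open circles) and the second (filled squares) for the 8 members with at least 100 UMIs. Black symbols give the median and the 5th to 95th percentiles of all 10692 genes, and the dotted line the Poisson spread. Pcdh17 at 6.03 and Pcdh9 at 5.12 stood highest over the second segment.

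Other tissue moved with these strips. In the 44 strips with at least 20 spots, the muscle markers ran from 3390 to 16627 CPM and the neuron markers from 3222 to 5614 CPM. Over these strips, a subset chosen after seeing the data, the log2 level of Pcdh17 had a Pearson correlation of 0.63 with the neuron list, 0.72 with the GABAergic list and -0.61 with the muscle list. Its values were -0.67 with the epithelium list, -0.65 with connective tissue, -0.49 with cartilage and bone, and -0.49 with the erythroid list. Over all 48 strips of this segment the values with the neuron, GABAergic and muscle lists were 0.64, 0.53 and -0.62, and over the first segment 0.29, 0.09 and -0.31. With epithelium, connective tissue, cartilage and bone, and the erythroid list they were -0.52, -0.59, -0.34 and -0.52 over all 48 strips. Over the first segment these were 0.33, 0.04, -0.18 and -0.34, so the sign changed for epithelium and connective tissue. With the glutamatergic list Pcdh17 was at -0.12 over the 44 strips, at -0.02 over all 48 and at 0.08 over the first segment. With the radial glia list it was at -0.12, -0.13 and -0.09. Pcdh9 had 0.73 with the neuron list and -0.71 with the muscle list over the 44 strips, with Spearman values of 0.49 and -0.41. Its Pearson values were 0.47 and -0.51 over all 48 strips, and -0.11 and -0.03 over the first segment. The values of Pcdh9 thus depended on the segment and on the strips used. Over the 44 strips Pcdh10 had 0.58 and -0.52 with the neuron and muscle lists, Pcdh19 0.48 and -0.39, and Pcdh7 0.44 and -0.31. Pcdh11x had 0.28 and -0.26, and Pcdh1 0.14 and -0.16. Pcdh9 and Pcdh17 correlated at 0.62 over the 44 strips, at 0.34 over all 48 and at -0.10 over the first segment. These values are descriptions over strips that share 1 library, and CPM levels are shares of a common total. The part of the other tissue in the members' spread was not tested.

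Within the 1028 spots outside the named regions, the spread was smaller for some members and as large for others. The extra CV was 18% instead of 26.5% for Pcdh17, 6.83% instead of 12.3% for Pcdh9 and 17.1% instead of 28.8% for Pcdh10. Pcdh19 no longer exceeded the Poisson spread there, with an index of 0.84. Pcdh11x and Pcdh7 were at 32.6% and 12.4%, above their values over all spots. These spots gave 43 strips and fewer UMIs per strip, so the CV and not the index is set side by side.

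For each member with at least 300 UMIs, the 3 genes with the most similar pattern were sought among 6163 genes over all 98 strips. Those of Pcdh17 were Nnat, Uchl1 and Rac3, at Pearson correlations of 0.67, 0.64 and 0.62. They changed little in the 93 strips with at least 20 spots, at 0.68, 0.62 and 0.59. Nnat encodes neuronatin, Uchl1 a neuronal deubiquitinase and Rac3 a small GTPase. Those of Pcdh9 were Stmn4, Marcks and Kif1a, at 0.86, 0.86 and 0.86, and at 0.60, 0.47 and 0.55 in the larger strips. The median over all 6163 genes was itself 0.31 for Pcdh9 over all strips and 0.03 over the larger ones, whereas for Pcdh17 it was near 0 in both.

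For these genes of Pcdh9, and for those of the members below, the correlation was lower without the strips of few spots, and other genes took most of these places. Over the larger strips 1 of the 3 genes remained for Pcdh17, Pcdh9 and Pcdh19 each, Nnat, Stmn4 and Mtus2, and 0 of 3 for Pcdh1, Pcdh7, Pcdh10 and Pcdh11x. Those of Pcdh10 were Trim67, Cop1 and Fads2 at 0.76, 0.70 and 0.70 over all strips, where its median was 0.27, and 0.50, 0.29 and 0.51 over the larger ones, where it was 0.02. Those of Pcdh11x were Grik1, Atp6v1f and Gria4 at 0.68, 0.66 and 0.66, with 0.33, 0.25 and 0.29 over the larger strips. Those of Pcdh19 were Mtus2, Cic and Ppp1r11 at 0.70, 0.64 and 0.63, with 0.39, 0.23 and 0.21. Pcdh7 with Gabrb1, Lsamp and Nenf and Pcdh1 with Mvb12b, Nol4 and Ube2n stayed at or below 0.46 over all strips.

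Spots were also grouped by their RNA, with the members left out of the clustering. In this grouping 5 clusters had a leading gene at least 3-fold above the other spots and were named by it: a Ttr region of 317 spots, a Gh region of 280, a Wfdc2 region of 260, a Pcp2 region of 71 and a Tceal7 region of 36. Each was compared with the 1028 remaining spots. The top genes of the Wfdc2 region held epithelial and skeletal genes such as Krt18, Col1a1 and Ibsp, and those of the Tceal7 region were muscle genes such as Myh3, Myh8 and Acta1. The neuron list stood at 0.67-fold of the remaining spots in the Wfdc2 region (0.65 to 0.69) and at 0.64-fold in the Tceal7 region (0.59 to 0.69). The muscle list stood at 2.46-fold and 7.22-fold in the same regions, and the epithelium list at 5.90-fold and 3.95-fold. Connective tissue markers stood at 3.68-fold and 2.26-fold, and cartilage and bone markers at 3.10-fold and 1.35-fold.

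In the Wfdc2 region 3 of 8 members were past 1.5-fold lower than in the remaining spots, against 7.60% of all genes, and none was past 1.5-fold higher, against 10.1%. The members' median ratio was 0.74 and that of all genes 0.98. Pcdh10 was at 63.0 CPM there and 122 CPM in the remaining spots, a ratio of 0.52 (0.41 to 0.65). Pcdh17 was at 258 and 458 CPM, a ratio of 0.56 (0.50 to 0.63). The ratio of both lay below the interval of the neuron list. Pcdh18 was at 0.65, with 16 UMIs in the region and an interval that held 1 (0.36 to 1.13).

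The other members were closer to the remaining spots. Pcdh9 was at 1207 and 1634 CPM, a ratio of 0.74 (0.70 to 0.78), and Pcdh7 at 511 and 587 CPM, a ratio of 0.87 (0.80 to 0.95). Both intervals lay above that of the neuron list and apart from that of Pcdh17. Pcdh11x was at 0.75 (0.60 to 0.92) and Pcdh19 at 0.76 (0.59 to 0.97). Pcdh1 was at 0.97 (0.70 to 1.34). Of the members under 100 UMIs, Pcdh8 had 13 UMIs in this region and Pcdh20 had 2, with ratios of 1.03 (0.51 to 1.97) and 1.06 (0.10 to 5.93).

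In the Tceal7 region 6 of 8 members were past 1.5-fold lower, against 27.0% of all genes, and none past 1.5-fold higher, against 14.9%. The members' median ratio was 0.64 and that of all genes 0.90. Pcdh17 stood at 0.37 (0.24 to 0.53), with 29 UMIs in the region, and Pcdh10 at 0.38 (0.16 to 0.75), with 8. Pcdh9 at 0.63 (0.54 to 0.73) and Pcdh7 at 0.66 (0.51 to 0.84) were near the ratio of the neuron list. Pcdh1 at 0.61 and Pcdh18 at 0.65 rested on 4 and 2 UMIs. Pcdh11x was at 0.73 (0.40 to 1.24) and Pcdh19 at 0.86 (0.44 to 1.52), and Pcdh8 and Pcdh20 had 0 UMIs among the 172916 of this region. Pcdh9 still gave 1029 CPM in these 36 muscle-led spots and had a UMI in all of them, and muscle markers were likewise counted in every other region, so a UMI in a spot does not place the transcript in a cell type.

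The other regions were led by Ttr, a choroid plexus transthyretin gene, by Gh, the pituitary growth hormone gene, and by Pcp2, a Purkinje cell gene. They had fewer members past 1.5-fold, although some intervals left out 1. In the Ttr region none of the 8 members tested was past 1.5-fold in either direction, against 2.03% of all genes higher and 2.57% lower. Pcdh9 was at 0.91 (0.87 to 0.96) there. In the Gh region none was either, against 3.72% higher and 4.04% lower. Pcdh17 was the lowest of those tested, at 0.71 (0.63 to 0.80), and its interval lay below that of the neuron list (0.86 to 0.92). Pcdh10 was at 0.78 (0.62 to 0.97) there, Pcdh9 at 0.91 (0.86 to 0.96) and Pcdh7 at 0.90 (0.82 to 0.99). In the Pcp2 region none was past 1.5-fold higher, against 7.27%, and 1 of 8 was past 1.5-fold lower, against 10.4%. That was Pcdh18 at 0.59 (0.16 to 1.57), from 4 UMIs. Its interval held 1, and its direction was reversed at resolution 2.0. Among the 8 members tested, Pcdh19 had the highest ratio there, with 115 CPM and 80.8 CPM in the remaining spots, a ratio of 1.42 (1.02 to 1.95). In the same region Pcdh17 was at 0.78 (0.65 to 0.92) and the neuron list at 0.92 (0.88 to 0.97). The set of spots in a region changed with the clustering. A region counted as found again where a cluster had the same leading gene. Of 6 other clusterings, none found the Ttr region, 1 the Pcp2 region, 4 the Wfdc2 region, and 5 each the Gh and Tceal7 regions. Of the 280 Gh spots, 147 were shared at resolution 0.5, 173 with 4000 variable genes, 250 with the members allowed among the variable genes and 255 under seed 1. With at least 2000 UMIs per spot it was 132 of 239. The Pcp2 region shared 46 of 71 spots, and the Wfdc2 region at least 210 of 260. Under seed 1 and with at least 2000 UMIs per spot, the Tceal7 region held 257 and 253 spots instead of 36, and Pcdh17 was at 0.57 and 0.58 in it.

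**Figure D4:**
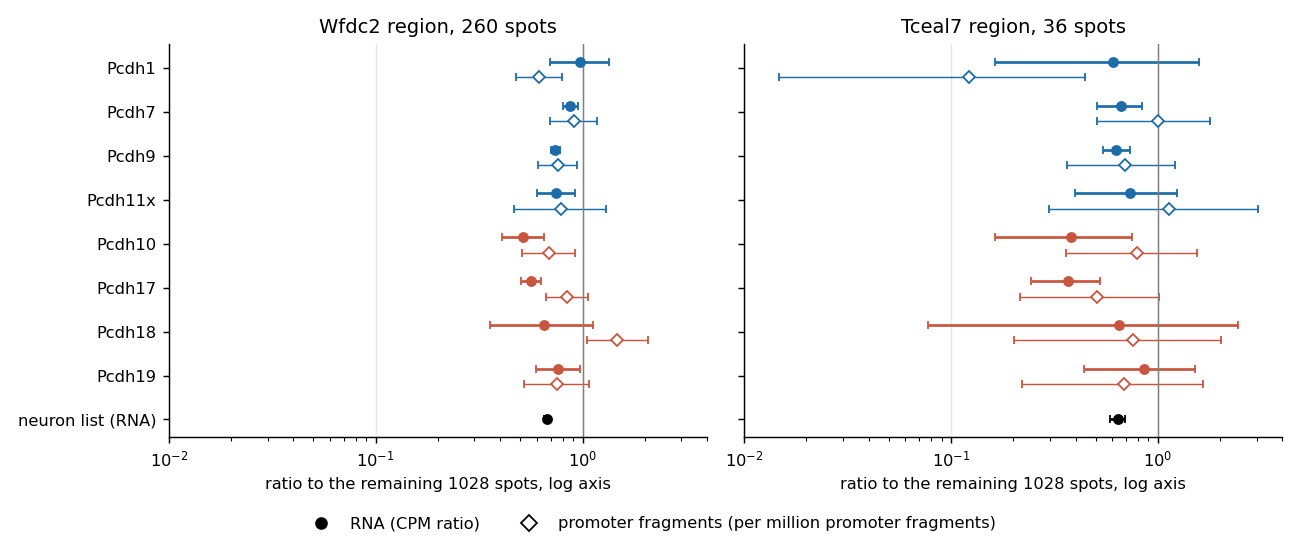
Ratio of each member in the Wfdc2 region (left, 260 spots) and the Tceal7 region (right, 36 spots) to the remaining 1028 spots, on a log axis, for RNA (filled circles) and promoter fragments (open diamonds), with 95% conditional binomial intervals. The black point is the summed neuron list. Pcdh17 was at 0.56 and Pcdh10 at 0.52 in RNA in the Wfdc2 region, below the neuron list at 0.67.

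The RNA of genes whose proteins bind or act with delta protocadherins was measured beside that of the members. Of the 15 partner genes, Dab1, the reelin adaptor, had most UMIs at 912 CPM, followed by Cdh2, which encodes N-cadherin, at 488 and Set at 190 CPM. This order depended on length too. Per kb of gene span Ppp1ca was highest of the 15 at 53.9 CPM, with Set at 12.5, Cdh2 at 2.22 and Dab1 at 0.810. In the Wfdc2 region 1 of 15 partner genes was past 1.5-fold higher, against 10.1% of all genes, and 1 past 1.5-fold lower, against 7.60%, with a median ratio of 0.78. In the Tceal7 region 3 of 15 were past 1.5-fold lower, against 27.0%, and none higher, against 14.9%, with a median of 0.78. Of the classical cadherins, Cdh2, Cdh4 at 479 CPM and Cdh8 at 257 CPM had most UMIs. Of the 15 classical cadherins with at least 100 UMIs, 4 were lower and 2 higher past 1.5-fold in the Wfdc2 region, against the same 7.60% and 10.1%. Their median ratio there was 0.71, and that of the members was 0.74. In the Tceal7 region 5 of the 15 were lower and 2 higher, against the same 27.0% and 14.9%, with a median of 0.71. In the Ttr region Cdh5, the endothelial cadherin, was at 1.57 (0.89 to 2.70) and Cdh15, the muscle cadherin, at 0.63 (0.27 to 1.30). Cdh3 and Cdh19, which had under 100 UMIs, were at 2.03 and 0.41 there, and all 4 of these intervals held 1.

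Chromatin accessibility was measured on the same spots. The fragment file held 52942843 fragments over 2500 barcodes, and the kept spots had a median of 21692 fragments each. Promoter fragments are those that overlapped 1 kb on each side of the TSS. The members together had 3607 of them in the kept spots. The median protein-coding promoter had 160.

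In this window of 1 kb on each side Pcdh9 had the most fragments of the members, 639 (590 to 691), more than 93.9% of protein-coding genes. Pcdh17 followed with 532 (488 to 579), at the 90.2 percentile. Pcdh1 had 505 (462 to 551), Pcdh7 435 (395 to 478), Pcdh8 420 (381 to 462) and Pcdh10 361 (325 to 400). Among these 6, the intervals of neighbours overlapped, except that Pcdh9 lay above Pcdh17. Pcdh19 had 271 (240 to 305) and Pcdh18 234 (205 to 266), followed by Pcdh11x with 126 (105 to 150) and Pcdh20 with 84 (67.0 to 104). Pcdh11x, at the 43.6 percentile, and Pcdh20, at the 34.8 percentile, lay below the median promoter. The order changed with the window. Within 2 kb Pcdh7 had 704 fragments and Pcdh9 700, and within 500 bp Pcdh9 had 526 and Pcdh1 172. Pcdh11x and Pcdh19 are X-linked, and the sex of the tissue is not given in the sources used here.

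Promoter fragments and UMIs did not keep the same order. Pcdh8 had 420 promoter fragments and 82 UMIs, whereas Pcdh11x had 126 fragments and 926 UMIs. This contrast depended on length. Per kb of gene span Pcdh8 was the higher, at 2.07 CPM against 0.171 for Pcdh11x. Per kb of exons it was the lower, at 2.07 against 7.62. Over the 10 members the Spearman correlation of fragments with UMIs was 0.65, and over 10281 protein-coding genes with at least 100 UMIs it was 0.12. The sets were filtered differently, since the members include Pcdh8 and Pcdh20 with fewer UMIs, and both values are across genes, which are not independent replicates and differ in length.

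The profile of insertions, the ends of fragments, differed between members. In Pcdh9, Pcdh17 and Pcdh10 the highest 50 bp bin was centred at -175 bases from the TSS, with 135, 123 and 108 insertions. In Pcdh19 and Pcdh18 it was at -75, with 67 and 71. In Pcdh8 it lay just inside the gene, at 25, with 113. In Pcdh1 the highest bin was at -875, with 139 insertions. The highest bins of Pcdh11x and Pcdh20 lay farther away, at 1675 and 1725, with only 24 and 27 insertions. Of the promoter fragments of Pcdh1, 34.1% reached within 500 bp of the TSS, against 61.6% to 82.3% in the other members. Pcdh7 had a low peak of 64 insertions at -25, on a broad floor with a median of 14 per bin, whereas Pcdh9 had a median of 6.

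The authors' peak calls were set beside these profiles. A called peak reached within 1 kb of the TSS in 9 of 10 members, against 62.9% of 21612 protein-coding genes. For Pcdh11x and Pcdh20 these peaks, centred at 40 and 340, did not cover the highest bin. The member with none was Pcdh7, whose nearest peak was centred at -2190 bases from the TSS and held 315 cut sites, while the gene had 4862 UMIs. The promoter peaks of Pcdh9 and Pcdh17 held 991 and 745 cut sites, against a median of 105 over 91223 peaks. From 2 kb before to 2 kb beyond the gene, Pcdh9 had 18 called peaks and Pcdh7 had 10, and the others had 1 to 4. These counts are not per length. Pcdh9 spans 877 kb and Pcdh7 415 kb, whereas Pcdh11x had 2 peaks over 620 kb and Pcdh8 had 2 over 4.54 kb.

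**Figure D5:**
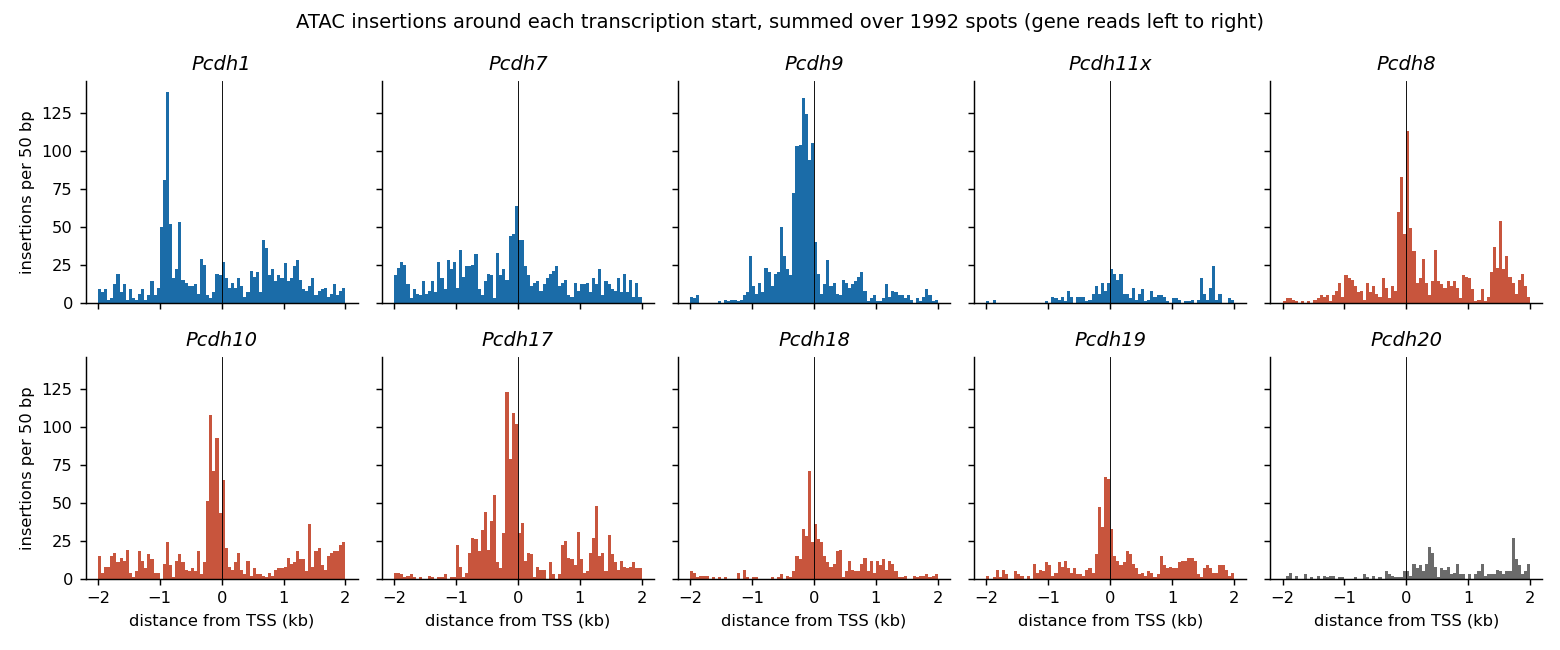
Insertions per 50 bp bin from 2 kb before to 2 kb after the TSS of each member (x axis, kb; genes read left to right), summed over 1992 spots. Pcdh9, Pcdh17 and Pcdh10 peaked at -175 bases, Pcdh1 peaked at -875 bases, and Pcdh11x and Pcdh20 stayed low.

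Promoter accessibility, which took no part in the clustering, was compared between regions for the 9 of 10 members with at least 100 fragments, as a share of all promoter fragments of each group of spots. In the Wfdc2 region 2 of 9 members were past 1.5-fold lower, against 12.7% of 16040 promoters, and none was past 1.5-fold higher, against 12.7%. Pcdh8 had 51 fragments and a ratio of 0.49 (0.35 to 0.66), and Pcdh1 had 83 and a ratio of 0.62 (0.48 to 0.79). Pcdh10 was at 0.69 (0.51 to 0.92), Pcdh9 at 0.76 (0.61 to 0.94) and Pcdh17 at 0.84 (0.67 to 1.06). Pcdh18 went the other way, at 1.47 (1.05 to 2.06), while its RNA was at 0.65 with an interval that held 1. The RNA ratio of Pcdh17 in this region lay below its promoter ratio, and their intervals (0.50 to 0.63 and 0.67 to 1.06) did not overlap.

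In the Tceal7 region 3 of 9 members were past 1.5-fold lower in accessibility, against 24.8% of promoters, and none past 1.5-fold higher, against 18.1%. They were Pcdh1 with 2 fragments and a ratio of 0.12 (0.015 to 0.45), Pcdh17 with 8 fragments and 0.51 (0.22 to 1.01), and Pcdh8 with 8 fragments and 0.63 (0.27 to 1.26). In the Ttr, Gh and Pcp2 regions the 9 members lay between 0.69 and 1.49. Only that of Pcdh17 in the Gh region, at 0.70 (0.51 to 0.94), had an interval that left out 1, and its RNA was at 0.71 there.

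Over strips of the second segment 3 of 9 member promoters had an index of dispersion above 1.5, against 19.4% of promoters. They were Pcdh8 at 2.12, Pcdh11x at 1.70 and Pcdh18 at 1.67. Over the first segment none of the 9 was above 1.5, against 2.83%. The Pcdh8 promoter was higher than 96.7% of promoters over the second segment, with 0 to 18 fragments per strip over all 48 strips, those of few spots included, while its RNA of 82 UMIs was too sparse for the same index. Pcdh17 and Pcdh9, the members with the highest indices in RNA, were at 1.23 and 0.77 in promoter fragments. Their promoters averaged 11.1 and 13.3 fragments per strip, against 71.5 and 274 UMIs per strip, and the index depends on these counts, so the indices of RNA and promoters were not compared.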

How the data were processed

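SPARC-seq RNA and accessibility were measured in 1 library each. The authors deposited UMI counts per gene and barcode, a fragment list and cut-site counts per peak, made with cellranger-arc 2.0.1 on mm10 per the file headers, and the submitters' notes name Seurat 4.0. The filter on spots asked for between 500 and 6000 detected genes and a mitochondrial share of 20% or less, which left 1992 of 1993. Of the deposited fragments, 46958877 lay in kept spots. CPM is UMIs per 1000000 UMIs of the same spots. Gene spans, exons and starts came from GENCODE annotation of GRCm38. Intervals are exact Poisson for levels and conditional binomial for ratios, at 95%, and cover counting error only. With 1 library no test across samples was possible and no p-value is given. Calls are a ratio past 1.5-fold, or an index of dispersion above 1.5, among genes with at least 100 UMIs or promoters with at least 100 fragments.

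Spots were scaled to 10000 counts, and 2000 variable genes without the members, 30 principal components, 15 neighbours and Leiden resolution 1.0 (scanpy 1.11.5, leidenalg 0.10.2) gave the clusters, of which those with a leading gene at least 3-fold higher became regions. Doublets were not called, since spots are not cells. Likeness was the Pearson correlation of log2(CPM + 20) over strips, for genes with at least 300 UMIs. Named genes were the members, the 3 most similar genes of each, region leaders, the 3 partner genes and 3 classical cadherins with most UMIs, and those past 1.5-fold in the largest region. Other genes named as examples were chosen after their values were seen. The members and lists were chosen with earlier results of these data known. The dispersion and ratio code was tested on simulated data. Python 3.11.15, numpy 2.4.6, scipy 1.17.1 and pandas 2.3.3 were used. Alternatives covered the spot filter, the total, the length, the clustering, the strips and the promoter window.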

Additional observations from a re-analysis of the deposited data

Results flagged for a closer look

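The fragment file held 507 barcodes that the count matrix does not hold, with 11.0% of all fragments and a median of 5123 fragments each. In these barcodes 290 fragments overlapped the members' promoters, 49.8 per 1000000 fragments there, against 76.8 per 1000000 in the kept spots. The rate over all promoters in these barcodes is not reported here, so the difference cannot be called particular to the members. They were singled out because they lie in data that no comparison used. Of the 290 fragments, Pcdh9 had the highest count of any member, 41, followed by Pcdh8 with 38, and Pcdh20 had the lowest, 12.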

How the results depend on the processing

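No ratio between regions whose interval left out 1 changed direction in the alternatives run, where the region was found again. The ratio of Pcdh19 in the Gh region, whose interval held 1, was 1.09 and became 0.67 at resolution 0.5, 0.78 with 4000 variable genes and 0.84 with at least 2000 UMIs per spot. Pcdh18 in the Pcp2 region, past 1.5-fold lower from 4 UMIs at 0.59, was at 1.38 at resolution 2.0. Some correlations over strips changed sign with strips of few spots left out, such as Pcdh9 with UMIs per spot (0.36 and -0.26) and Pcdh11x with the GABAergic list (-0.17 and 0.18). With Gm42418 and the mitochondrial genes left out of the total, Pcdh9 was at 1605, Pcdh7 at 593 and Pcdh17 at 419 CPM, and the Pcdh19 index over the second segment was 1.49. In the spots outside the named regions, the index over the second segment was 1.36 for Pcdh10 and 0.84 for Pcdh19, and over the first segment 1.51 for Pcdh1. With at least 2000 UMIs per spot that of Pcdh1 was 1.59. Pcdh17 and Pcdh9 were at 2.51 and 1.78 over the second segment outside the named regions, still above 1.5. The cause was not tested. The percentile of promoter fragments moved with the window. Within 500 bp of the TSS it was 61.0 for Pcdh1, 76.0 for Pcdh7, 80.3 for Pcdh8, 86.4 for Pcdh17 and 39.6 for Pcdh20. Within 2 kb it was 92.7 for Pcdh1, 93.4 for Pcdh7, 89.5 for Pcdh8, 91.0 for Pcdh10 and 92.7 for Pcdh17. Of the RNA ratios between regions, 190 stayed within the interval of the value reported and 10 did not, and of the promoter ratios 149 did and 1 did not. The promoter ratios were recomputed only with other windows and another total, on the same regions. How they depend on the clustering was not tested. The RNA counts hold only regions found again by their leading gene. The Ttr region was thus compared only under the changed total, where every region kept the same spots. The Pcp2 region was compared there and at resolution 2.0. Likeness over strips moved in 16 of 28 cases. The likeness over strips with at least 20 spots was chosen after seeing the data. No paired analysis was possible because each assay had 1 library. Depth limits Pcdh8, Pcdh18 and Pcdh20 most, with 82, 140 and 13 UMIs.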

Other observations

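Of the non-clustered protocadherins outside the delta family, Pcdh15, a gene of hair cell tip links, had 4202 UMIs (482 CPM, 468 to 497), and Pcdh12, an endothelial protocadherin, had 37 UMIs (4.25 CPM, 2.99 to 5.85). Over strips of the second segment Pcdh15 had an index of dispersion of 1.40 and thus varied less than Pcdh7 at 2.0, although both had a similar number of UMIs. Dab1 and Cdh2, the partner genes with most UMIs, had indices of 3.92 and 3.12. Pcdh9 correlated at 0.82 with the glutamatergic list over all 48 strips of the second segment and at 0.26 over the 44 strips with at least 20 spots, so the higher value rests on strips of few spots.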
